A study of Oryza sativa and Arabidopsis thaliana with 16 samples.

Results

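The CC-type glutaredoxins described here are 8 Arabidopsis thaliana genes: AT4G15660, AT4G15680, AT4G15690 and AT4G15700, whose locus numbers lie close together on chromosome 4, and AT3G62930, ROXY1, ROXY2 and GRX480. They were chosen by name, as the probe sets that the platform annotation pairs with each of these single genes. Earlier results of these data were known at that choice, so member counts set beside shares of all probe sets are descriptions. Each gene had 1 probe set, so 8 probe sets stand for 8 of the 13350 single genes that the annotation names on the Arabidopsis array. The series compares early nitrogen responses of rice and Arabidopsis in 16 Affymetrix arrays, of which the 8 Arabidopsis arrays are used here. All plants were wild type, 13 days old and grown hydroponically at 22 °C on medium with ammonium succinate (0.5 mM) and sucrose (3 mM). Nitrogen plants then received 20 mM KNO3 with 20 mM NH4NO3 for 2 h, and control plants 20 mM KCl for the same time. Nitrogen and control plants therefore differed in nitrate, ammonium, chloride and total salt, which cannot be told apart. The 4 groups were root KCl, root nitrogen, shoot KCl and shoot nitrogen, with 2 arrays each. The labels call the arrays of a group biological replicates and do not say whether they came from separate cultures, so p-values measure only the spread between these arrays.

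Glutaredoxins are small enzymes that use glutathione to reduce disulfides and glutathionylated proteins. The CC-type, also called ROXY, is a land plant class named for the adjacent cysteines of its active site. Several of its members bind TGA-type transcription factors in the nucleus, and some recruit TOPLESS corepressors through the end of the protein. The chromosome 4 group is known for induction by nitrate and for restraining primary root growth. ROXY1 is needed for petal initiation and acts together with ROXY2 in anther development. GRX480 is induced by salicylate, binds TGA factors and represses the jasmonate-responsive defensin gene PDF1.2. Class membership is background, and no protein sequence was used here to test it.

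Values are RMA log2 signal and carry no detection call. The members' values in the 4 KCl arrays ran from 3.94 to 5.65, against array medians of 5.46 to 5.54 over all probe sets, so most members were dim in the KCl controls. Whether the probes of 1 chromosome 4 gene also bind transcripts of its neighbours was not tested. The tissue labels were checked against markers, because the protocols speak of whole seedlings. All 6 measured photosynthesis genes were lower in roots than in shoots (log2 differences from -5.94 for LHCB4.2 to -4.55 for SBPASE, with PRK at -5.76, PSAN at -5.47, LHCB4.1 at -4.65 and RCA at -4.62), and of 4 measured root markers PYK10 and the peroxidase gene AT5G17820 were higher in roots. Both root KCl arrays stood apart: their values correlated at 0.956 with each other, against 0.981 to 0.993 within the other groups, and 5.11% of probe sets differed by more than 1 log2 unit between them. In the shoot nitrogen group that share was 1.89%, and in the shoot KCl group 0.0044%. For the members, calls that changed when 1 array was left out are given below with that array. A mixed tissue does not show whether more RNA per cell or more cells of a type carry a signal.

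In shoots, the 4 chromosome 4 genes had nitrogen values above their KCl values in every array. So did the other 4 members and 15.7% of all probe sets. Among the chromosome 4 genes AT4G15690 rose 5.51-fold. AT4G15690 read 4.69 and 4.91 in shoot KCl arrays and 7.15 and 7.37 in shoot nitrogen arrays. The gap between the groups was far wider than that between arrays of either group, and the log2 change was 2.46 ± 0.17 (SE, n = 2 arrays per group; limma adjusted p = 0.00358). Only 31 of 22746 probe sets had a larger positive change in shoots. AT4G15690 was the 1 member called in shoots, where limma called 0.637% of all probe sets (0.374% higher and 0.264% lower). It kept that call without either shoot nitrogen array. Without shoot KCl replicate 1 the adjusted p was 0.0773 and without replicate 2 it was 0.0620, at changes of 2.35 and 2.57.

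The other chromosome 4 genes moved with more spread. AT4G15680 read 4.99 and 4.93 in shoot KCl arrays and 6.57 and 7.92 in shoot nitrogen arrays. The nitrogen arrays were both above the KCl arrays but lay 1.35 apart, and the difference of 2.28 ± 0.41 did not pass the test (adjusted p = 0.0876). AT4G15700 read 4.15 and 4.35 against 5.36 and 6.30, a difference of 1.58 ± 0.30 (adjusted p = 0.104). AT4G15660 read 3.96 and 3.94 against 4.72 and 6.18, a difference of 1.504 ± 0.42 (adjusted p = 0.321). The higher value of each nitrogen pair came from replicate 2 in all 4 genes.

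**Figure D1:**
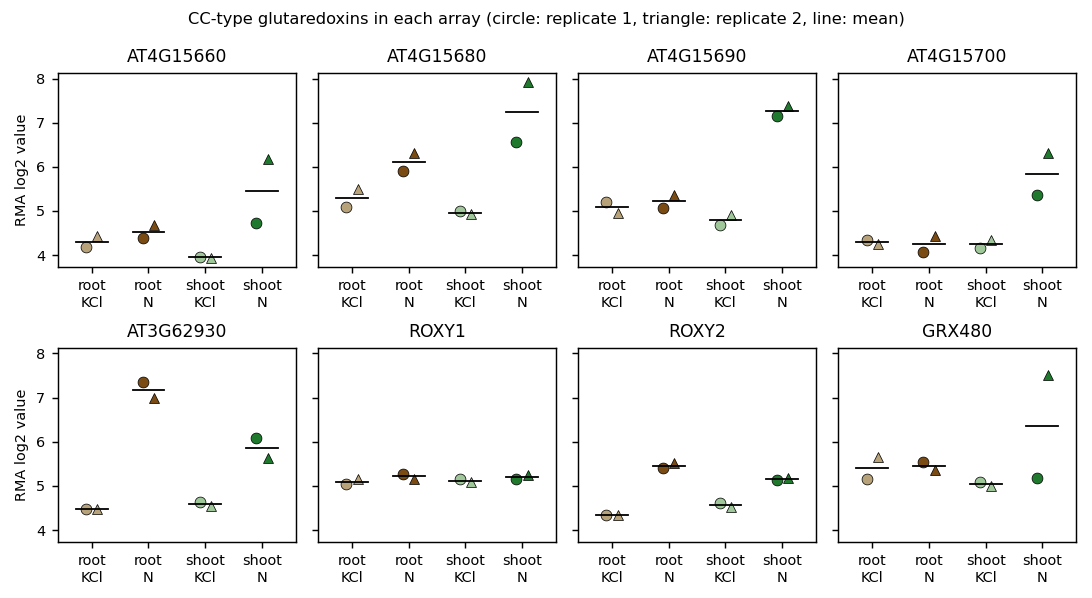
RMA log2 value (y axis, the same scale in all panels) of the 8 genes in the 2 arrays of each of the 4 groups (x axis), with circles for replicate 1, triangles for replicate 2 and a line at the group mean. The chromosome 4 genes in the top row are high in shoot nitrogen arrays, AT3G62930 is highest in root nitrogen arrays at 7.35 and 6.98, ROXY1 stays between 5.05 and 5.27, and GRX480 is high in shoot nitrogen replicate 2 alone.

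Shoot nitrogen replicate 2 was above replicate 1 in 7 of the 8 members, while 51.7% of all probe sets were higher in replicate 2. GRX480 had the widest gap among the members, with 5.18 in replicate 1 and 7.52 in replicate 2. Only 19 probe sets had a larger gap in that direction, against 94 for AT4G15660, 120 for AT4G15680, 304 for AT4G15700 and 4122 for AT4G15690. With replicate 2 as the sole shoot nitrogen array, 5 members were called, the 4 chromosome 4 genes and GRX480, where 0.805% of all probe sets were called. Their changes ran from 2.05 (AT4G15700) to 2.96 (AT4G15680). With replicate 1 as the sole array, AT4G15690 alone was called (2.35 ± 0.22, adjusted p = 0.0227), where 0.339% of all probe sets were called, and AT4G15660 was at 0.78, AT4G15700 at 1.11, AT4G15680 at 1.61 and GRX480 at 0.14. Either fit takes the lone array to vary like those of the other groups. With either shoot KCl array left out no member was called by limma, in fits that called very few probe sets. With all arrays, 6 members had an unadjusted p under 0.05 in shoots, as did 1566 of 22746 probe sets.

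**Figure D2:**
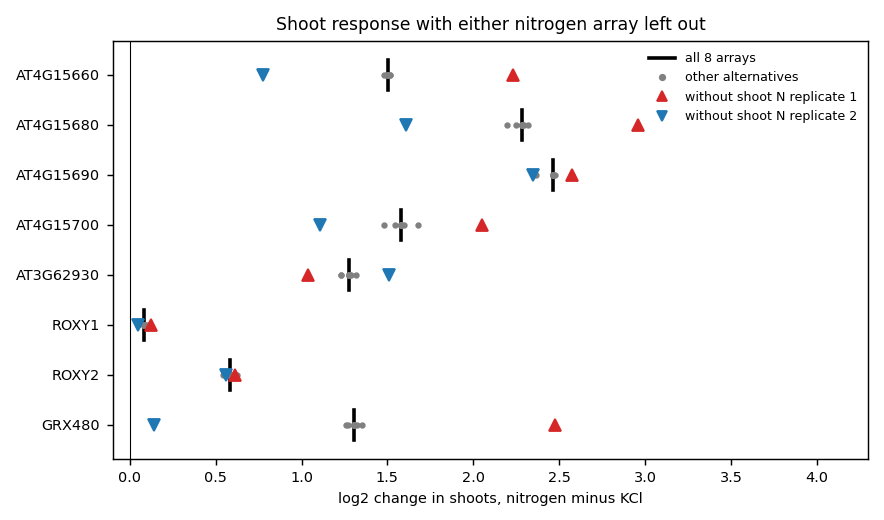
Log2 change in shoots, nitrogen minus KCl (x axis), of each member (y axis) with all 8 arrays (black bar), without shoot nitrogen replicate 1 (upward triangle), without replicate 2 (downward triangle) and under the other alternatives (grey dots). AT4G15690 moves between 2.35 and 2.58, whereas GRX480 moves between 0.14 and 2.47.

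In roots none of the chromosome 4 genes was called by limma, and none had an unadjusted p under 0.05. Over all probe sets 11.4% were called there, and 7016 of 22746 had an unadjusted p under 0.05. AT4G15680 came nearest, with 5.09 and 5.49 in root KCl arrays and 5.90 and 6.31 in root nitrogen arrays. These ranges did not overlap, and the difference of 0.81 ± 0.41 had an adjusted p of 0.224. AT4G15690 read 5.21 and 4.96 against 5.07 and 5.37, so its groups overlapped. AT4G15660 (0.23 ± 0.42) and AT4G15700 (-0.04 ± 0.30) overlapped as well. The 95% interval of the root change was -0.27 to 0.55 for AT4G15690 and -0.76 to 1.22 for AT4G15660, so a doubling lies inside the interval of AT4G15660 and outside that of AT4G15690.

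AT3G62930, on chromosome 3, had the largest root response of the 8 genes. It read 4.47 in both root KCl arrays and 7.35 and 6.98 in root nitrogen arrays. It rose 6.48-fold, by 2.70 ± 0.20 on the log2 scale (adjusted p = 0.00358), and only 21 of 22746 probe sets had a larger positive root change. In shoots it read 4.63 and 4.54 under KCl and 6.10 and 5.62 under nitrogen. The shoot groups did not overlap either, and the difference of 1.27 ± 0.20 fell just short of the threshold (adjusted p = 0.0523). In roots the change stayed between 2.51 and 2.88 when any 1 array was left out, with adjusted p from 0.00461 to 0.0349.

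ROXY2, the anther gene, also rose in roots, from 4.33 and 4.34 to 5.40 and 5.51. The change was 1.12 ± 0.11, or 2.17-fold (adjusted p = 0.00606). Shoot values were 4.61 and 4.53 under KCl and 5.13 and 5.18 under nitrogen, without overlap, and the difference of 0.59 ± 0.11 was not called (adjusted p = 0.116). The adjusted p of the root change was 0.0517 without root nitrogen replicate 1 and 0.0597 without root nitrogen replicate 2, in fits that called 0.545% and 0.673% of all probe sets. Thus 2 of the 8 members rose in roots and none fell, where limma called 11.4% of all probe sets (6.94% higher and 4.44% lower). Median centring of the arrays turned that split over all probe sets from 1578 higher of 2589 called to 1102 of 2698, and under it ROXY2 and AT3G62930 were still called higher. Of the 6 photosynthesis markers of shoots, SBPASE also fell with nitrogen in roots, from 6.69 and 6.11 to 5.01 and 4.98 (-1.40 ± 0.24, adjusted p = 0.0188). The other 5 were not called there, at -0.47 to 0.82, and averaged over tissues SBPASE fell by 0.88 (adjusted p = 0.0432). The part of this marker list in the members' root changes was not tested.

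ROXY1, the petal gene, showed no call in any comparison. Its 8 values lay within 0.22 log2 units of each other, from 5.05 to 5.27. The nitrogen change was 0.12 in roots (95% interval -0.17 to 0.40) and 0.08 in shoots (-0.20 to 0.37), so changes larger than these bounds lie outside the intervals. GRX480 read 5.15 and 5.65 in root KCl arrays and 5.55 and 5.36 in root nitrogen arrays, a difference of 0.06 with a wide interval of -1.48 to 1.60. Its shoot KCl values were 5.09 and 4.997, and the shoot difference of 1.31 ± 0.65 (adjusted p = 0.912) was carried by nitrogen replicate 2.

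**Figure D3:**
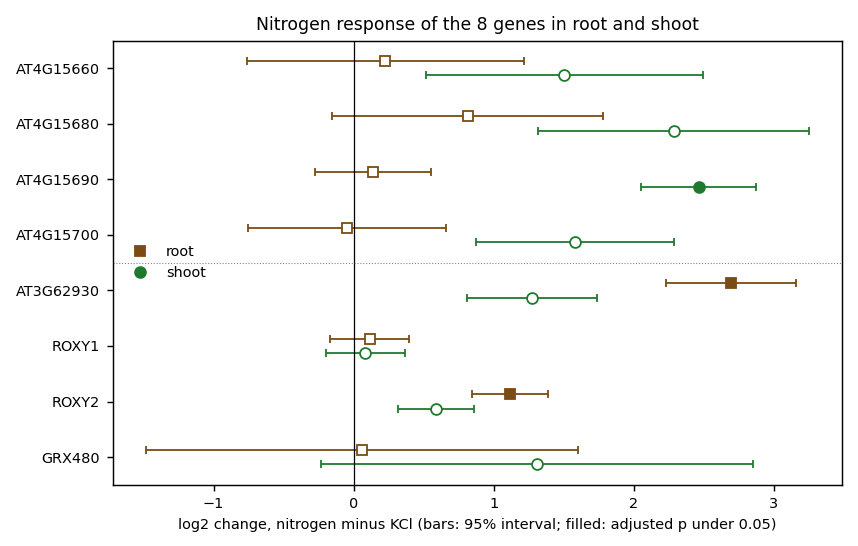
Log2 change, nitrogen minus KCl (x axis), of each member (y axis) in root (squares) and shoot (circles), with 95% intervals; filled symbols have an adjusted p under 0.05. The filled symbols are AT4G15690 in shoots (2.46) and AT3G62930 (2.70) and ROXY2 (1.12) in roots.

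All 4 chromosome 4 genes and GRX480 had the larger change in shoots, whereas AT3G62930 and ROXY2 had it in roots. The median change of the chromosome 4 genes was 0.18 in roots and 1.93 in shoots, and that of the other 4 was 0.62 and 0.93, so both medians were larger in shoots. Over all probe sets the medians were 0.02 and -0.01. All 8 members had shoot nitrogen arrays above both shoot KCl arrays, an arrangement found in 15.7% of all probe sets, with 18.7% the other way and 34.4% in all. In roots 4 members did (AT4G15680, AT3G62930, ROXY1 and ROXY2), against 30% of all probe sets, with 27.3% the other way and 57.3% in all.

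The difference between the root and the shoot response was tested as an interaction. AT4G15690 passed it, with a root change smaller than its shoot change by 2.32 ± 0.25 log2 units (root minus shoot, -2.32; adjusted p = 0.0320). It was 1 of 32 probe sets called with a smaller root change, 0.141% of those tested, while 0.343% were called with a larger one and 0.484% in all. The other chromosome 4 genes were at -1.28 ± 0.59 (AT4G15660), -1.47 ± 0.58 (AT4G15680) and -1.62 ± 0.42 (AT4G15700) and were not called (adjusted p from 0.120 to 0.300). AT3G62930 pointed the other way, at 1.42 ± 0.28 (adjusted p = 0.0748), as did ROXY2 at 0.53 ± 0.16 (adjusted p = 0.158). ROXY1 was at 0.03 and GRX480 at -1.25 ± 0.92. Centring each array on its median moved the median interaction of all probe sets from 0.03 to -0.08.

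The AT4G15690 interaction kept its sign and size in all 15 alternatives, from -2.48 to -2.17, but was called in 6 of them. Its adjusted p was 0.143 and 0.154 without root nitrogen replicates 1 and 2, 0.264 and 0.246 without shoot KCl replicates 1 and 2, and 0.110 without shoot nitrogen replicate 2. The first 4 of these fits called 0 of 22746 probe sets, and the last called 5. Without root KCl replicate 1 AT3G62930 was called too, at 1.42, in a fit that called far more probe sets than the fit with all arrays.

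Averaged over both tissues, 4 members rose with nitrogen, where limma called 3.21% of all probe sets (2.17% higher and 1.04% lower). AT3G62930 rose by 1.98 ± 0.14 (adjusted p = 0.00177), AT4G15690 by 1.299 ± 0.12 (adjusted p = 0.00543), ROXY2 by 0.85 ± 0.08 (adjusted p = 0.00555) and AT4G15680 by 1.55 ± 0.29 (adjusted p = 0.0425). AT3G62930 and AT4G15690 kept this call without any 1 array. ROXY2 lost it without shoot KCl replicate 2 (adjusted p = 0.0545). AT4G15680 lost it without either root nitrogen or either shoot KCl array (adjusted p from 0.113 to 0.185), and also under quantile normalization (0.0647), unmoderated variances (0.152) and array weights (0.0779), so that it was called in 8 of 15 alternatives. With 1 array left out, the averaged change ran from 1.87 to 2.10 for AT3G62930 and from 1.22 to 1.38 for AT4G15690. It ran from 0.83 to 0.88 for ROXY2 and from 1.21 to 1.89 for AT4G15680.

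Between the tissues, the averages over both treatments differed for 3 members, where limma called 35.8% of all probe sets (19.3% higher and 16.5% lower in roots). AT4G15690 (-0.88 ± 0.12, adjusted p = 0.00141) and AT4G15700 (-0.76 ± 0.21, adjusted p = 0.0277) were lower in roots, and AT3G62930 (0.60 ± 0.14, adjusted p = 0.0138) was higher. These averages mix unlike arrays, since no member had root and shoot ranges that did not overlap, as 31.2% of all probe sets did (16.4% higher and 14.8% lower in roots). Under KCl, the root mean minus the shoot mean was 0.28 for AT4G15690, 0.05 for AT4G15700 and -0.11 for AT3G62930. Under nitrogen the same difference was -2.04 for AT4G15690, -1.58 for AT4G15700 and 1.31 for AT3G62930. AT4G15690 kept its call without any 1 array (adjusted p from 0.00272 to 0.00944). AT4G15700 lost it without either root KCl array, either shoot KCl array or root nitrogen replicate 1 (adjusted p from 0.0565 to 0.0942). AT3G62930 lost it without root nitrogen replicate 1 (adjusted p = 0.0503) or shoot KCl replicate 2 (adjusted p = 0.0559). With 1 array left out, the tissue difference ran from -0.954 to -0.802 for AT4G15690 and from -1.001 to -0.529 for AT4G15700. For AT3G62930 it ran from 0.479 to 0.716. Among members not called with all arrays, AT4G15680 ran from -0.74 to -0.062 and GRX480 from -0.85 to 0.31.

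The order of the 4 group means differed between members. AT4G15680 was highest in shoot nitrogen arrays, next in root nitrogen arrays, then in root KCl and lowest in shoot KCl arrays, and no neighbours in this order overlapped. AT4G15660 and AT4G15690 had the same order, with overlap between root nitrogen and root KCl arrays. For AT4G15700 only the shoot nitrogen arrays stood clear of the rest. AT3G62930 and ROXY2 ran from root nitrogen through shoot nitrogen and shoot KCl to root KCl, with no overlap between neighbours.

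Of 13 other CC-type glutaredoxin genes, 9 were measured under a single gene name, and the chromosome 4 neighbour AT4G15670 was not among them. In roots AT4G33040 fell, from 6.85 and 7.88 under KCl to 5.57 and 5.33 under nitrogen. Its change was -1.91 ± 0.33 (adjusted p = 0.0197), and the root KCl arrays lay 1.03 apart. The adjusted p was 0.0860 and 0.122 without root nitrogen replicates 1 and 2 and 0.0547 without either shoot KCl array. None of the 9 was called in shoots by limma, where 0.637% of all probe sets were called. In shoots 2 of the 9 had an unadjusted p under 0.05, as did 1566 of 22746 probe sets. AT5G18600 was at 1.04 ± 0.16 there (adjusted p = 0.0540), with 8.43 and 8.41 under KCl and 9.37 and 9.54 under nitrogen. Averaged over tissues AT5G18600 rose by 0.68 ± 0.11 (adjusted p = 0.0325) and AT4G33040 fell by 1.501 (adjusted p = 0.0258). Both averages lost their call when any root nitrogen, shoot KCl or shoot nitrogen array was left out.

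The remaining 7 genes lay between -0.48 (AT5G11930) and 0.06 (AT2G47880) in roots and between -0.37 (AT2G47880) and 0.55 (AT1G06830) in shoots. The others were AT1G03020, AT3G62950, AT3G62960 and AT2G30540. The 9 genes had a median change of -0.29 in roots and 0.01 in shoots. Of the 9, 5 were lower in roots than in shoots, where 16.5% of all probe sets were called lower in roots, with root minus shoot differences of -4.06 for AT5G18600, -1.22 for AT3G62960, -0.99 for AT2G47880, -0.60 for AT1G06830 and -0.51 for AT3G62950. The widest tissue difference among the 8 members was the -0.88 of AT4G15690.

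**Figure D4:**
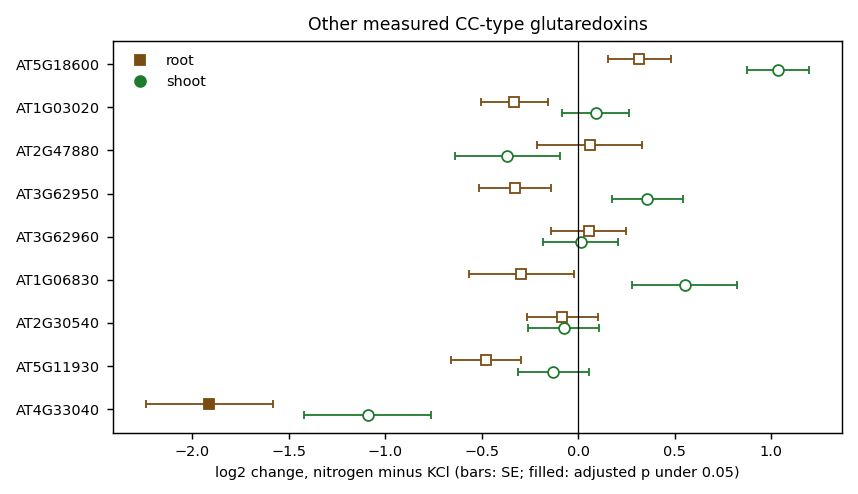
Log2 change, nitrogen minus KCl (x axis), of the 9 other measured CC-type glutaredoxins (y axis) in root (squares) and shoot (circles), with bars of 1 SE; filled symbols have an adjusted p under 0.05. AT4G33040 in roots (-1.91) is the filled symbol, and AT5G18600 in shoots is at 1.04.

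Genes linked to these proteins in function were read for comparison. Among 5 measured glutaredoxins of other classes none was called for nitrogen in either tissue by limma, and none had an unadjusted p under 0.05. Their changes ran from -0.25 to 0.89 in roots and from -0.10 to 0.26 in shoots. Of these, AT2G20270 (-1.12), GRXC1 (-0.41) and GRXC2 (-0.38) were lower in roots than in shoots. The glutathione reductase genes GR1 and GR and the type-A cytokinin response regulators ARR15 and RR16 were also not called for nitrogen in either tissue. Nor was PDF1.2, which changed by -0.20 ± 0.15 in roots and 0.05 ± 0.15 in shoots. No gene of these lists had an unadjusted p under 0.05 for nitrogen in roots or shoots. Limma called 11.4% of all probe sets in roots and 0.637% in shoots, so counts over so few genes are descriptions. GR (-1.01) and RR16 (-0.99) were lower in roots than in shoots. Of 3 measured regulators of the HRS1/HHO group, which repress nitrate uptake genes, AT1G25550 and AT1G68670 rose in roots, by 2.32 ± 0.27 and 2.50 ± 0.24 (adjusted p = 0.00856 and 0.00514). Without root nitrogen replicate 1 the change of AT1G25550 was 1.99 (adjusted p = 0.0538). In shoots these genes were at 1.57 and 1.48 and were not called (adjusted p = 0.0822 and 0.0602). TGA factors and TOPLESS corepressors are not named as single genes by the annotation and were not analysed here.

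The genes whose profile over the 8 arrays lay nearest to a member were found by the root mean square difference of log2 values, after each profile had been centred on its own mean. Nearest to the mean profile of the chromosome 4 genes were STZ (0.32), which encodes a stress-induced zinc finger repressor, AT5G51440 (0.32) and the transcription factor gene WRKY6 (0.34). STZ read 7.48 and 9.21 in shoot nitrogen replicates 1 and 2, so it shared the gap between those arrays. AT5G51440 read 7.04 and 7.39 there, against 4.83 and 4.74 under KCl. Whether the spread of the chromosome 4 genes in shoots has the same source as that of STZ and WRKY6 was not tested.

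AT3G62930 lay nearest to AT1G25550 (0.29) of the HRS1/HHO group, AT5G54130 (0.31) and the kinase gene WNK7 (0.34). AT1G25550 read 10.04 and 9.38 in root nitrogen arrays against 7.47 and 7.32 under KCl. GRX480 lay nearest to the receptor-like kinase gene B120 (0.21), AT5G54860 (0.26) and AT4G24160 (0.27). All of these had their highest value in shoot nitrogen replicate 2, for example 10.62 for AT4G24160 against 8.30 in replicate 1. ROXY1 and ROXY2 varied by an SD of 0.07 and 0.48 over the arrays, under the minimum of 0.5 set for this search.

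**Figure D5:**
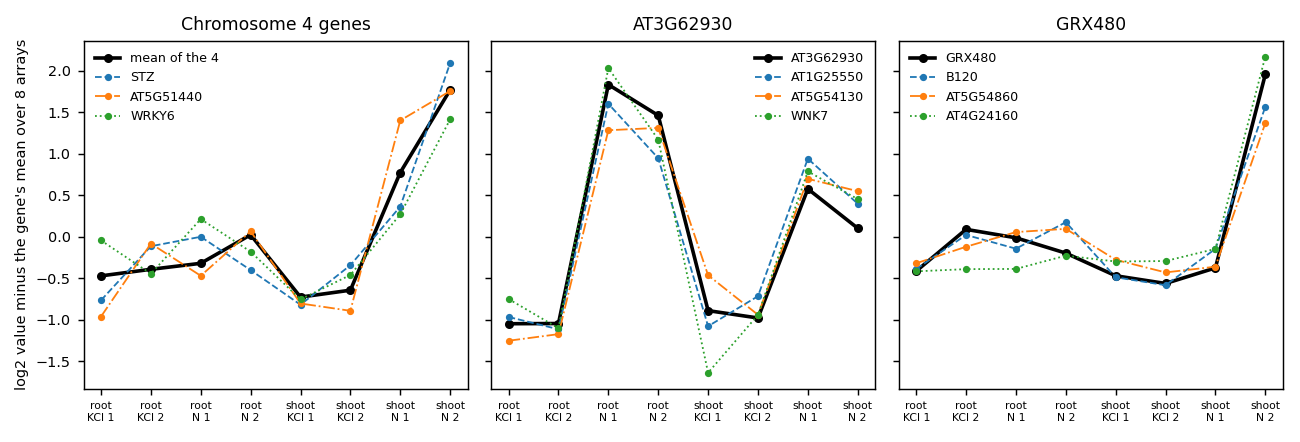
Log2 value minus the gene's own mean over the 8 arrays (y axis), in each array (x axis), for the mean of the chromosome 4 genes, AT3G62930 and GRX480 (black lines) and the 3 nearest non-member genes of each (coloured lines). In the left panel values peak in shoot nitrogen arrays, in the middle panel in root nitrogen arrays, and in the right panel in shoot nitrogen replicate 2.

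Among the members themselves, the 6 pairs of chromosome 4 genes differed by 0.31 to 0.56 (median 0.42), and the 16 pairs of a chromosome 4 gene with another member by 0.27 to 1.27 (median 0.75). The closest pair of all was AT4G15660 with GRX480 (0.27), which share a high value in shoot nitrogen replicate 2. AT4G15690 and AT4G15700 differed by 0.37, and 1 other probe set with a single gene lay closer to AT4G15690. In the other chromosome 4 pairs, from 8 (AT4G15680 with AT4G15700) to 332 (AT4G15660 with AT4G15690) lay closer to the first-named gene. For AT4G15660 with GRX480, 7 lay closer to AT4G15660. AT3G62930 differed from every chromosome 4 gene by more than 1 log2 unit. These distances rest on 8 arrays in 4 groups and are descriptions.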

How the data were processed

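Expression of each probe set was deposited on the log2 scale, as RMA values per the submitters' processing notes (RMA corrects background, normalizes across arrays and summarises probes). Neither the software version nor the set of arrays handled together is stated in the labels. These values were used unchanged. Of 22810 probe sets, 64 controls were left out and 22746 were tested. Names came from the platform annotation, which gives a single gene for 13513 probe sets, several for 503 and none for 8730.

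One linear model with 4 group means over the 8 Arabidopsis arrays was fitted to all probe sets with limma 3.58.1 in R 4.3.3 (moderated variances, 4 residual degrees of freedom). Contrasts were nitrogen against KCl in roots, in shoots and averaged, their interaction, and the tissue difference averaged over treatments. Tests were two-sided, with Benjamini-Hochberg adjustment over all 22746 probe sets, and calls were made under 0.05. Genes with several probe sets were read by the one of highest mean. The number of arrays limits the precision.

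The members and gene lists were chosen with earlier results of these data known. Named were all members, all measured CC-type genes, called genes of the other lists (the 4 largest changes where over 4 were called), and the 3 nearest profiles where the profile's SD was at least 0.5. Gene lists were matched by locus code or symbol. Alternatives were quantile normalization, median centring, leaving out dim probe sets (mean under 5), 1 tissue's arrays alone, unmoderated or trended variances, array weights, a replicate block and each array left out. The rice arrays were not used. No sequence of these genes was used here.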

Additional observations from a re-analysis of the deposited data

Results flagged for a closer look

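The nitrogen response of AT4G15690 differed between the tissues by a test of the difference itself: root minus shoot was -2.32 log2 units (limma interaction, adjusted p = 0.0320), from a root change of 0.14 and a shoot change of 2.46. The call held in 6 of 15 alternatives, with adjusted p from 0.0137 to 0.264. It was lost with the replicate block (adjusted p = 0.0820) and was weakest without shoot KCl replicate 1 (adjusted p = 0.264). The root arrays of both treatments overlapped, and both shoot nitrogen arrays lay above both shoot KCl arrays.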

How the results depend on the processing

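Of 601 values of the 8 members under the alternatives, 582 kept their direction and 530 also their side of the threshold. With probe sets of a mean under 5 left out, 5 members remained in the table. Of these 1 was called in roots (2 in the full table) and 3 in shoots (1 in the full table). Limma called 9.95% of the remaining probe sets in roots and 1.36% in shoots. With 1 tissue's arrays alone, limma called 0 in roots, where 3 had an unadjusted p under 0.05 and 0 of 22746 probe sets were called. Unmoderated variances gave 0 in shoots, where 0 of 22746 probe sets were called and 6 members had an unadjusted p under 0.05. They gave 0 for the interaction, with 4 members at an unadjusted p under 0.05 and 0.149% of all probe sets called. Between tissues they gave 1, where 28.4% of all probe sets were called. Trended variances gave 2 in shoots, where 0.615% of all probe sets were called, and array weights 5, where 1.78% were (0.637% as reported). Quantile normalization, array weights and the replicate block each gave 0 for the interaction, with 5, 4 and 6 at an unadjusted p under 0.05. For the interaction those fits called 24, 27 and 0 of 22746 probe sets. In the reported fit 7016 probe sets had an unadjusted p under 0.05 in roots, 1566 in shoots and 4305 for the interaction. With 1 array left out, counts ran from 1 to 2 in roots, 0 to 5 in shoots, 2 to 7 on average, 0 to 2 for the interaction and 1 to 6 between tissues. The calls over all probe sets also moved widely with 1 array left out. Under the alternatives that kept 2 arrays in each group they ran from 0 to 3314 in roots (2589 as reported) and 0 to 406 in shoots (145). They ran from 252 to 972 on average (730) and from 0 to 282 for the interaction (110).

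Replicate numbers were not shown to pair the samples: same-numbered deviations correlated at -0.42 to 0.39 between groups. The replicate block left 2 members called in roots, 1 in shoots, 4 on average and 3 between tissues, and took the AT4G15690 interaction to an adjusted p of 0.0820. It moved the calls over all probe sets to 1389 in roots, 91 in shoots, 331 on average, 7598 between tissues and 0 for the interaction.

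Signs turned only for values that were not called. Under quantile normalization AT4G15700 in roots was at 0.12, GRX480 in roots at -0.0023 and ROXY2 between tissues at -0.074. Median centring put GRX480 in roots at -0.037 and the ROXY1 interaction at -0.077. With 1 array left out, roots gave -0.23 to 0.14 for AT4G15700, -0.19 to 0.31 for GRX480 and -0.015 to 0.29 for AT4G15690. The ROXY1 interaction ran from -0.026 to 0.089. Between tissues ROXY1 ran from -0.030 to 0.028, AT4G15660 from -0.65 to 0.075 and GRX480 from -0.85 to 0.31. The cause was not tested.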
